A study of Mus musculus with 2 samples.

Results

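Integrins, laminins and fibronectin were followed across the cell classes recovered from 2 scaffolds in a mouse skull defect. The genes were taken by symbol from the 32285 genes of the deposited count tables: 18 integrin alpha subunits, 8 integrin beta subunits, 11 laminin chains and Fn1, which encodes fibronectin, 38 genes in all. Cells came from female Balb/c mice of 6 weeks of age, with no transgene or allele named in the labels, whose 3.5 mm hole in the cranial bone held a cell-free scaffold for 1 week. The scaffold was Gel100 in one group and Gel50_CS50 in the other, names that the labels do not explain. Scaffold cells of 5 mice were pooled per group, sorted for viability and made into 1 library of droplet single-cell RNA sequencing that counts 3' ends by unique molecular identifier (UMI). Each group is therefore 1 pool and 1 library, so every difference below is between 2 libraries, with no replicate check and no test. Intervals are 95% and cover counting error only.

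Integrins are paired receptors of an alpha and a beta subunit that hold cells to the extracellular matrix and to each other. The beta 2 integrins are limited to leukocytes, the beta 1 integrins bind collagen, laminin and fibronectin in most tissues, and the alpha v integrins bind the RGD sequence in fibronectin, vitronectin and osteopontin and can release active TGF-beta. Laminins are trimers of an alpha, a beta and a gamma chain that build the basement membrane around vessels, muscle cells and epithelium. Fibronectin is laid down as a provisional matrix in wounds, by fibroblasts and also by macrophages.

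After filtering, 7601 Gel100 cells and 7206 Gel50_CS50 cells remained, with a median of 12707 and 16509.5 UMIs per cell; 24 barcode sequences occurred in both libraries. Cells were clustered without using the 38 genes, and a cluster was named for the cell type its markers resemble. Macrophages and monocytes numbered 3518 in Gel100 and 3294 in Gel50_CS50, neutrophils 614 and 1406, T and NK cells 1081 and 506, and stromal cells, the fibroblast or mesenchymal class, 236 and 656. Conventional dendritic cells numbered 259 and 178 and plasmacytoid dendritic cells 423 and 259. Endothelial cells (61 and 52) and pericytes or smooth muscle cells (29 and 51) were few, and their levels are given without a comparison of the scaffolds. Cluster 2, 539 and 598 cells led by MHC class II genes, sat between monocytes and dendritic cells and was left unnamed. With cluster 2, the unnamed cells numbered 1347 in the Gel100 library, at a median of 1164 UMIs, and 758 in the Gel50_CS50 library, at a median of 16541.5. The labelled tissue is a bone defect, and the 7 osteoblast markers together reached 219 CPM in stromal cells of Gel100 and 271 CPM in those of Gel50_CS50, against 43190 and 45448 CPM for the 9 fibroblast markers.

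Levels are UMIs of a gene per 1000000 UMIs of the class and library (CPM). One UMI stands for 1 captured molecule, so a level is per molecule and was not divided by gene length. By the mean of both libraries, 4 of the 38 genes stood at 10 CPM or more in each of 11 classes (10 named classes and cluster 2): Fn1, Itgav, Itgb1 and Itgb2. Fn1 was under 10 CPM in 1 of the single libraries, at 5.22 CPM in Gel100 plasmacytoid dendritic cells. Itgb2 in stromal cells, at 10.05 CPM in Gel100 and 13.2 CPM in Gel50_CS50, was 2.93% and 3.39% of the macrophage level. C1qa and Apoe, leading genes of macrophage clusters, stood there at 2.52% and 1.92% and at 3.63% and 3.46%. Whether stromal, pericyte or endothelial cells themselves express Itgb2 was not tested. Itgb6, Itga10 and Lama1 were among the genes with a mean under 10 CPM in every one of the 11 classes, although Itga10 reached 12.9 CPM in Gel50_CS50 pericytes. Vessel-associated cells led for many of the genes by the same mean: pericytes or smooth muscle cells held the highest level of 9 genes and endothelial cells that of another 9. Stromal cells led for 5 genes, and the leukocyte classes with cluster 2 for the other 15. The highest class was the same for 33 of 38 genes after every cell was thinned to 3000 UMIs, and for 31 when cells were classed one by one from markers.

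**Figure D1:**
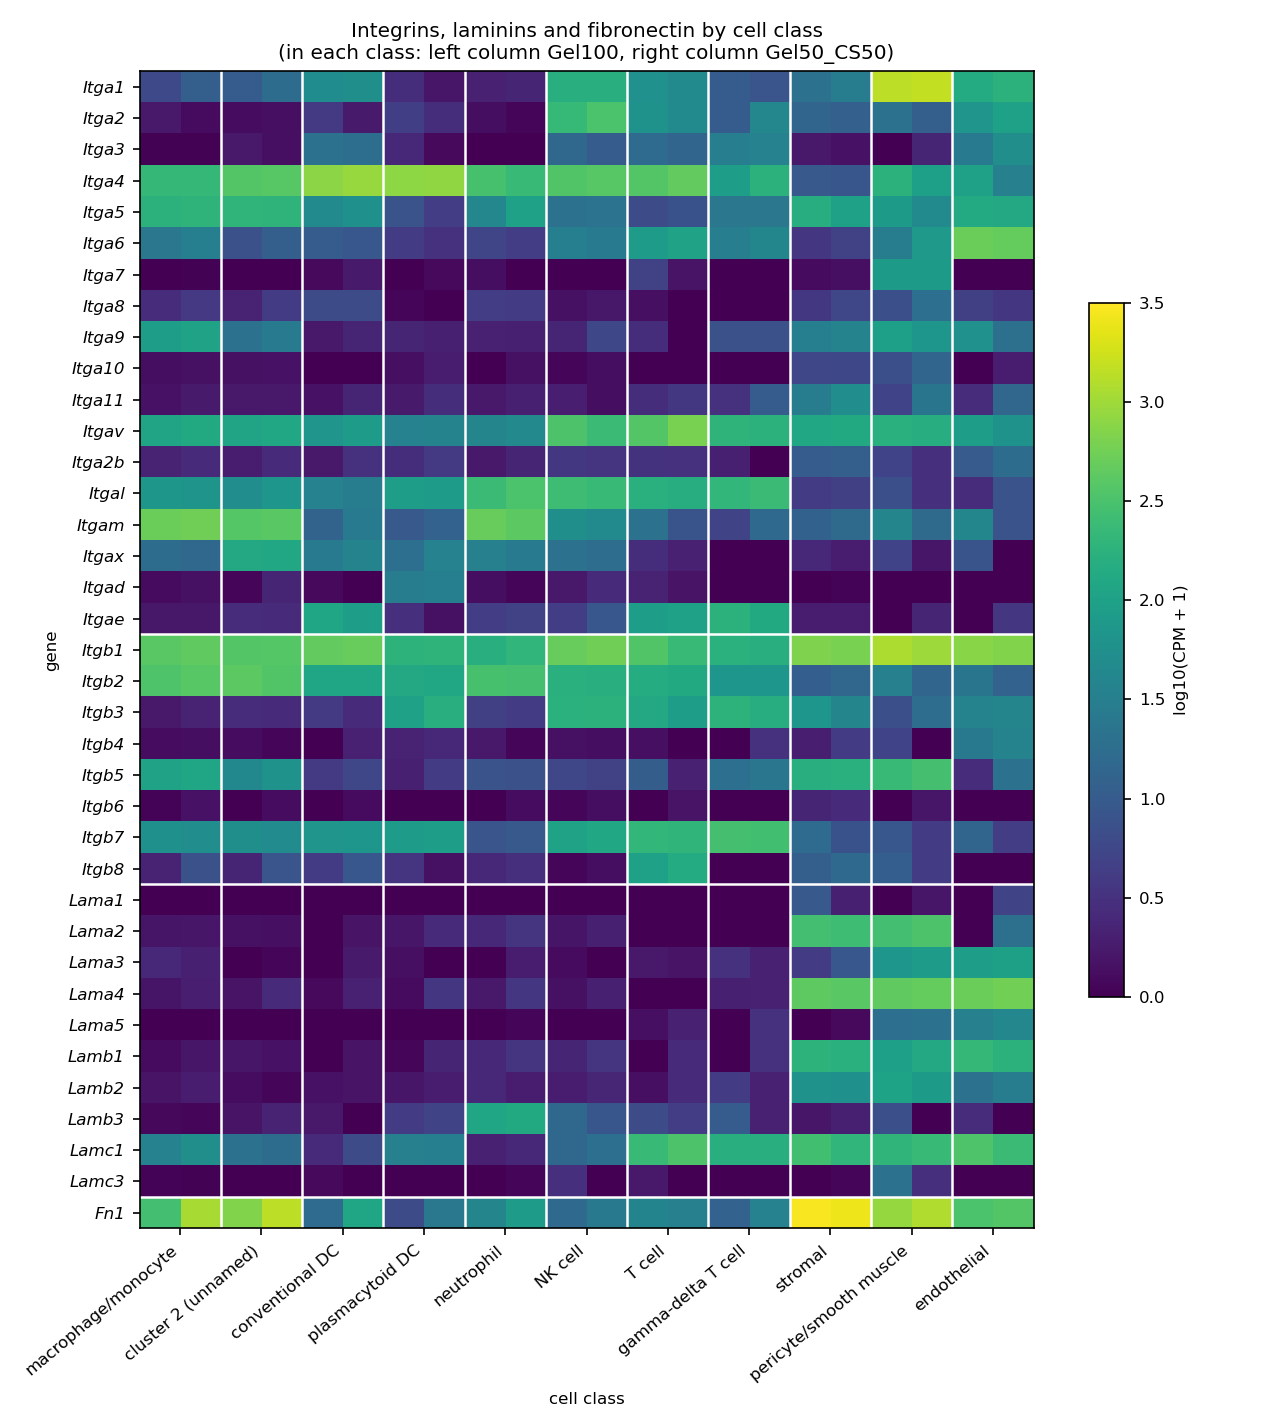
Level of the genes (rows, in the order alpha subunits, beta subunits, laminin chains and Fn1) in 11 classes (columns) as log10(CPM + 1). In each class the left column is Gel100 and the right column Gel50_CS50; Itgam and Itgb2 are bright in macrophages and neutrophils, laminin chains in stromal, pericyte and endothelial cells, and Fn1 goes from 287 to 1114 CPM in macrophages.

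Itgam and Itgb2, which pair as the complement receptor and phagocyte adhesion receptor Mac-1, had the highest means of the beta 2 integrin subunits in macrophages and neutrophils; in Gel50_CS50 neutrophils alone, Itgal stood above Itgb2. Itgam stood at 519 CPM in Gel100 and 553 CPM in Gel50_CS50 macrophages, and at 484 and 408 CPM in neutrophils. Itgb2, the shared beta subunit, stood at 343 and 388 CPM in macrophages and at 304 and 289 CPM in neutrophils. None of these ratios between the libraries passed 1.5-fold. After thinning, 71.3% and 72.8% of macrophages had an Itgam UMI, while 2.44% and 3.45% of conventional dendritic cells did. Within neutrophils the Itgam level differed by cluster more than by scaffold: the small cluster 22, led by the granule genes Ngp, Camp and Ltf, held 1109.8 and 801 CPM, and cluster 3 held 272 and 343 CPM. Itgal, the alpha subunit of LFA-1, was highest in neutrophils, at 240 and 325 CPM, followed by NK cells at 262 and 227 CPM, whose values overlap those of neutrophils. Itgax, the CD11c subunit, marked cluster 2 with 127 and 124 CPM, against 16.3 and 14.1 CPM in macrophages and 27.3 and 36.0 CPM in conventional dendritic cells.

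Itgam and Itgax lie side by side on chromosome 7, at chr7:128062640-128118491 and chr7:128129547-128150657 (mm10, GENCODE vM21), and use the same beta subunit, yet differed in their order of classes. The 250 bases before their start sites, from RefSeq on GRCm38.p6, are shown with those of the widely expressed Itgb1 and of the collagen receptor subunit Itga11, whose mean reached 10 CPM in stromal cells and pericytes. Capitals mark the PU.1 core GAGGAA and the GC box GGGCGG on either strand, where the lower strand reads TTCCTC and CCGCCC. All lie on the plus strand, at chr7:128062390-128062639, chr7:128129300-128129549, chr8:128685404-128685653 and chr9:62677605-62677854.
Itgam: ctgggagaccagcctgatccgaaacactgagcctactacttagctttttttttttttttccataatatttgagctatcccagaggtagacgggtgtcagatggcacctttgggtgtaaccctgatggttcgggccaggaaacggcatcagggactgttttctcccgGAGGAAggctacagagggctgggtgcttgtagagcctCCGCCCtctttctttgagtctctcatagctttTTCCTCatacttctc
Itgax: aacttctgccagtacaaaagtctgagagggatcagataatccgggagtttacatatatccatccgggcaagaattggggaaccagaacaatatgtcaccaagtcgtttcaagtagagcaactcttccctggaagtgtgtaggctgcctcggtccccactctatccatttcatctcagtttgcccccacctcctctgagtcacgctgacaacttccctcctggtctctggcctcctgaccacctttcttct
Itgb1: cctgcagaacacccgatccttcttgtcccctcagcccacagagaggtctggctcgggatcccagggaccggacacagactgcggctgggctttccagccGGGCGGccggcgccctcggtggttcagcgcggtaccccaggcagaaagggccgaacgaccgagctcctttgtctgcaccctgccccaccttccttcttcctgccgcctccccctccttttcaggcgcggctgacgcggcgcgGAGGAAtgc
Itga11: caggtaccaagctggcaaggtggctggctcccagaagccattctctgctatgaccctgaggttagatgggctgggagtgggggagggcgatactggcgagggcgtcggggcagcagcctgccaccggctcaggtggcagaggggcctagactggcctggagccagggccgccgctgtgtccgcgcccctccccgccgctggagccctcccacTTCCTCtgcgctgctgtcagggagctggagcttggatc
The Itgam window held GAGGAA or its complement at 2 places and the Itgax window at none; Itgb1 and Itga11 each held 1. Of 32851 promoter windows of the same length, 23.3% held GAGGAA and 32.7% held GGGCGG; of 26 windows for 23 of the genes, 13 and 9 did. CpG pairs numbered 21 before Itgb1, 12 before Itga11, 6 before Itgam and 5 before Itgax, with a median of 10 over the 26 windows and 6 over all windows. Genes found in few classes also had many, such as Itga8 with 18 and Lama5 with 19. TATAAA stood in 12.4% of all windows and in 0 of the 26. These matches describe the letters only.

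The alpha 4 subunit, which binds VCAM-1 and fibronectin with beta 1 or beta 7, had its highest levels in dendritic cells. Itga4 stood at 779 and 902 CPM in conventional and at 800.1 and 841 CPM in plasmacytoid dendritic cells, and neighbouring values overlap across the 2 classes. Macrophages were lower, at 210.2 and 216 CPM. Itgb7 was highest in gamma-delta T cells, at 292 and 276 CPM. These cells also held the highest Itgae, the alpha subunit that pairs with beta 7 and binds E-cadherin, at 178 and 133 CPM; conventional dendritic cells followed at 117 and 88.4 CPM. Across 22 profiles of 11 classes, the log2 levels of Itgae and Itgb7 correlated at r = 0.65, and those of Itgal and Itgb2 at r = 0.79. Of the other integrin pairs, Itga1 with Itgb1 had r = 0.84, Itgax with Itgb2 0.72 and Itgam with Itgb2 0.67. Lower values included 0.53 for Itga4 with Itgb7, -0.41 for Itga4 with Itgb1 and 0.24 for Itgad with Itgb2. The profiles share the libraries and their depth, so these are descriptions.

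NK cells carried the collagen receptor subunit Itga2, which pairs with beta 1, at 218 CPM in Gel100 and 320 CPM in Gel50_CS50. Its partner Itgb1 stood at 489 and 550 CPM there. Itgb3, best known from platelets and osteoclasts, was also highest in NK cells, at 174 and 177 CPM, with overlapping values in gamma-delta T cells, at 179 and 149 CPM, and reached 98.9 and 155 CPM in plasmacytoid dendritic cells. Macrophages were nearly without it, at 0.719 and 1.19 CPM. Osteoclast-like cells (4 and 19) held Itgav, at 1464 and 917 CPM, with Itgb3, at 93.6 and 163 CPM, the pair known as the vitronectin receptor of these cells.

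Itgav, which stood at 365 and 622 CPM in T cells, and Itgb8, its partner in a receptor that activates TGF-beta, were concentrated in 1 T cell cluster. Cluster 20, led by Il2ra, Ctla4, Ikzf2 and Tnfrsf4, genes known from regulatory T cells, held Itgb8 at 299 and 305 CPM and Itgav at 838 and 1219 CPM. It also held Lamc1, a laminin gamma chain, at 537 and 705 CPM, with a Lamc1 UMI in 69 of 76 cells of Gel100 and 62 of 67 cells of Gel50_CS50. Gamma-delta T cells held Lamc1 at 156 and 163 CPM and NK cells at 14.1 and 18.1 CPM. Laminin alpha and beta chains were close to absent beside it: over all T cells no alpha chain and neither Lamb1 nor Lamb2 reached 10 CPM in either library.

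Partner subunits were also looked for in single cells thinned to 3000 UMIs, which left out shallower cells (370 of 3518 and 50 of 3294 macrophages). UMIs of both Itgam and Itgb2 were found in 43.6% of Gel100 and 45.5% of Gel50_CS50 macrophages, where the product of the separate shares gives 41.9% and 43.1%. In neutrophils both were found in 32.2% and 32.1%, with products of 29.0% and 30.2%. For Itga2 and Itgb1 in NK cells the joint shares were 29.5% and 37.8%, with products of 27.6% and 35.1%. For Itgae and Itgb7 in T cells they were 6.84% and 8.67%, above products of 4.74% and 6.55%. In gamma-delta T cells, the highest class for both genes, the joint shares were 17% and 11.9%, closer to products of 15.6% and 11.7%. For Itgav and Itgb5 in stromal cells they were 10.6% and 12.1%, below products of 11.9% and 12.9%. For Itga6 and Itgb1 in endothelial cells they were 52.4% and 45.8%, beside products of 57.1% and 45.7%. A missing UMI at this depth does not show that a cell lacks the subunit.

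Vessel-associated cells carried many of the laminin chains and of the laminin and collagen receptor subunits, and stromal cells held several of the same chains. Pericytes or smooth muscle cells held Itga1, a collagen and laminin receptor subunit, at 1410.1 and 1487 CPM, and its partner Itgb1 at 1174 and 961 CPM. They were also the highest class for Itga7, a muscle laminin receptor subunit, at 80.6 and 80.4 CPM. Endothelial cells were highest for Itga6, the alpha subunit of the main laminin receptors, at 524 and 471 CPM, and for Itgb4 at 25.3 and 35.4 CPM. Their Itgb1 stood at 748 and 677 CPM, Itga5 at 139 and 129.7 CPM, Itga1 at 141 and 178 CPM, Itga2 at 65.0 and 99.4 CPM, Itgav at 88.5 and 61.5 CPM and Itga4 at 101 and 32.0 CPM. In pericytes Itgb5 stood at 236 and 293 CPM, Itgav at 165 and 152 CPM, Itga4 at 175 and 92.7 CPM, Itga9 at 92.7 and 68.8 CPM, Itga5 at 80.6 and 45.04 CPM and Itga6 at 28.2 and 77.9 CPM. Lama4, the alpha chain of vessel laminin, stood at 518 and 575 CPM in endothelial cells, at 443 and 465 CPM in pericytes and at 431 and 400.1 CPM in stromal cells. Lama4 and Lamb1 had the closest profiles of the laminin pairs, with r = 0.98 over the 22 profiles, followed by Lama2 and Lamb2 with r = 0.89. The gamma chain Lamc1 stood at 341 and 240.1 CPM in endothelial cells and 195 and 232 CPM in pericytes. Lamb1 stood at 215 and 177 CPM in endothelial cells and 94.7 and 129 CPM in pericytes, which also held Lama2 at 280.01 and 337 CPM, Lamb2 at 105 and 80.4 CPM and Lama3 at 68.5 and 81.1 CPM. In stromal cells Lamc1 stood at 277 and 203 CPM, Lama2 at 284 and 256 CPM and Lamb1 at 182 and 166 CPM. Fn1 stood at 322 and 366 CPM in endothelial cells and 892 and 1224 CPM in pericytes. Lama3 reached 88.5 and 95.2 CPM in endothelial cells, where Lamb3 stood at 1.81 CPM in Gel100 and at 0 in Gel50_CS50, with an upper limit of 2.53 CPM from 3 counts. Stromal markers summed to 59.6 CPM in endothelial cells of Gel100 and 1990 CPM in those of Gel50_CS50, and the median depth was 1972 and 18757 UMIs; in pericytes the stromal sum was 5326 and 13649 CPM. The part of stromal RNA in the Fn1, Lama2 and Lamb1 levels of these classes was not tested.

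Lamb3, a beta chain known from epithelial laminin, was found almost only in neutrophils, and its partner Lama3 was close to absent beside it. It stood at 113 CPM in Gel100 and 132 CPM in Gel50_CS50, and its highest level in any other of the 11 classes was 13.5 CPM, in Gel100 NK cells. In thinned cells, 23.0% and 27.9% of neutrophils had a Lamb3 UMI. Lama3, the alpha chain, stood under 1 CPM in neutrophils in both libraries. G0s2, a leading gene of the neutrophil clusters, lies inside the span of Lamb3 (chr1:193207699-193343878) on the opposite strand, at chr1:193272161-193273217, and shares 0 exon bases with it in GENCODE vM21. G0s2 stood at 1653 and 1497 CPM in neutrophils and at most at 19.7 CPM in the other 10 classes. Itgad, the remaining beta 2 partner, showed the same arrangement: it reached 29.6 and 31.1 CPM in plasmacytoid dendritic cells and stayed under 2 CPM in the other 10 classes. Cox6a2, on the opposite strand within Itgad and sharing 70 exon bases, stood at 742 and 645 CPM in those cells. The sources used here do not state whether reads were counted by strand, so the Lamb3 and Itgad levels are uncertain. Fn1 shares 292 exon bases with Apol7d and Itga4 shares 1124 with Cerkl, both on the opposite strand, and Itgam shares 3450 with Gm49368 on its own strand.

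**Figure D2:**
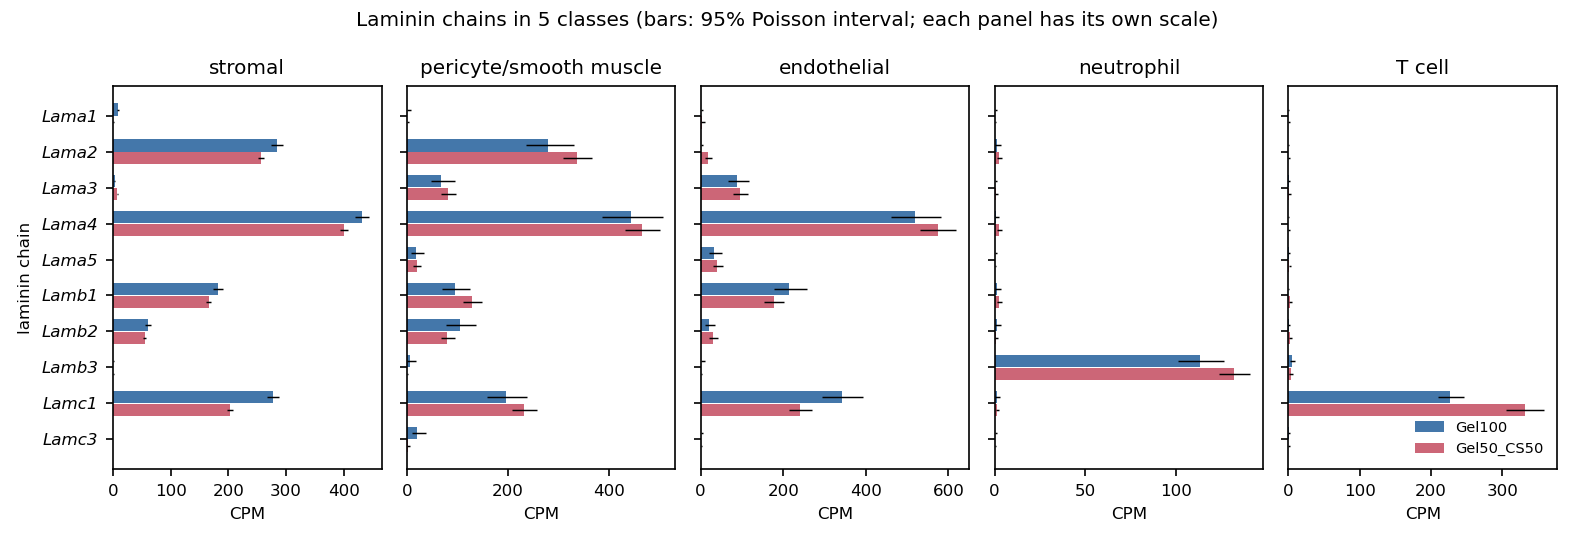
Level in CPM (horizontal axes, 1 scale per panel) of laminin chains in 5 classes, Gel100 in blue and Gel50_CS50 in red, with 95% Poisson intervals as error bars. Stromal, pericyte and endothelial cells hold several chains with Lama4 highest, neutrophils hold Lamb3 at 113 and 132 CPM, and T cells hold Lamc1 at 227 and 331 CPM.

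Which of these genes differed between the scaffolds was read within each class from the ratio of Gel50_CS50 over Gel100. A gene counted as measured when its 2 libraries averaged 10 CPM or more and together held 25 UMIs or more, and it was singled out when the counting interval of the ratio lay wholly beyond 1.5-fold. In macrophages and monocytes 14 of the 38 genes were measured, and Fn1 alone was singled out. Of all 7883 genes measured there, 5.84% were singled out, 2.12% as higher and 3.72% as lower. Fn1 stood at 287 CPM in Gel100 and 1114 CPM in Gel50_CS50, a log2 ratio of 1.96 (1.93 to 1.98) or 3.88-fold. In thinned cells, a Fn1 UMI was found in 23.5% of Gel100 and 50.4% of Gel50_CS50 macrophages. The share in plasmacytoid dendritic cells, taken as background, was 2.21% and 4.71%, at median depths of 18407 and 18272 UMIs against 16038 and 19183 in macrophages. The median log2 ratio of the 14 genes was 0.13, beside -0.02 for all measured genes.

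Fn1 was higher in Gel50_CS50 in each of the 7 macrophage and monocyte clusters, wholly beyond 1.5-fold in 6 of them. In cluster 0, led by Mmp12, Pf4 and Mrc1, it stood at 767 and 1685 CPM. In cluster 12, led by F10, Vcan and F13a1, it stood at 588 and 1398 CPM. Cluster 1, led by Ms4a7 and Saa3, held 39.3 and 201 CPM, a log2 ratio of 2.35, and cluster 5, led by C1q genes, 34.9 and 139 CPM. Cluster 6, with Gpnmb and Trem2, held 111 and 336 CPM. Cluster 11, with C1q and MHC class II genes, held 474 and 704 CPM, a log2 ratio of 0.57. Cluster 8, led by Stfa3 and Arg1, was at 1236 and 1967 CPM the highest in both libraries, and Fn1 itself was among its 10 leading genes. The makeup of the class differed too: cluster 8 was 1.88% of the macrophages in Gel100 and 21.2% in Gel50_CS50, and cluster 1 was 35.5% and 8.35%. With both libraries weighted to the same cluster shares, the log2 ratio of Fn1 was 1.02 in place of 1.96. Cluster 2, outside the class, held 683 and 1410 CPM; there Fn1 alone of 14 measured members passed the rule, beside 3.39% of all genes measured, 1.33% higher and 2.05% lower. Its Itgam stood at 382 and 402 CPM, Itgb2 at 408 and 356 CPM, Itga4 at 361 and 395 CPM, Itgb1 at 369 and 372 CPM, Itga5 at 196 and 188 CPM and Itgav at 108 and 119.9 CPM. Itgal, at 51.5 and 68.4 CPM, Itgb7, at 54.6 and 47.4 CPM, and Itgb5, at 42.4 and 60.8 CPM, were its lowest above a mean of 50 CPM.

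**Figure D3:**
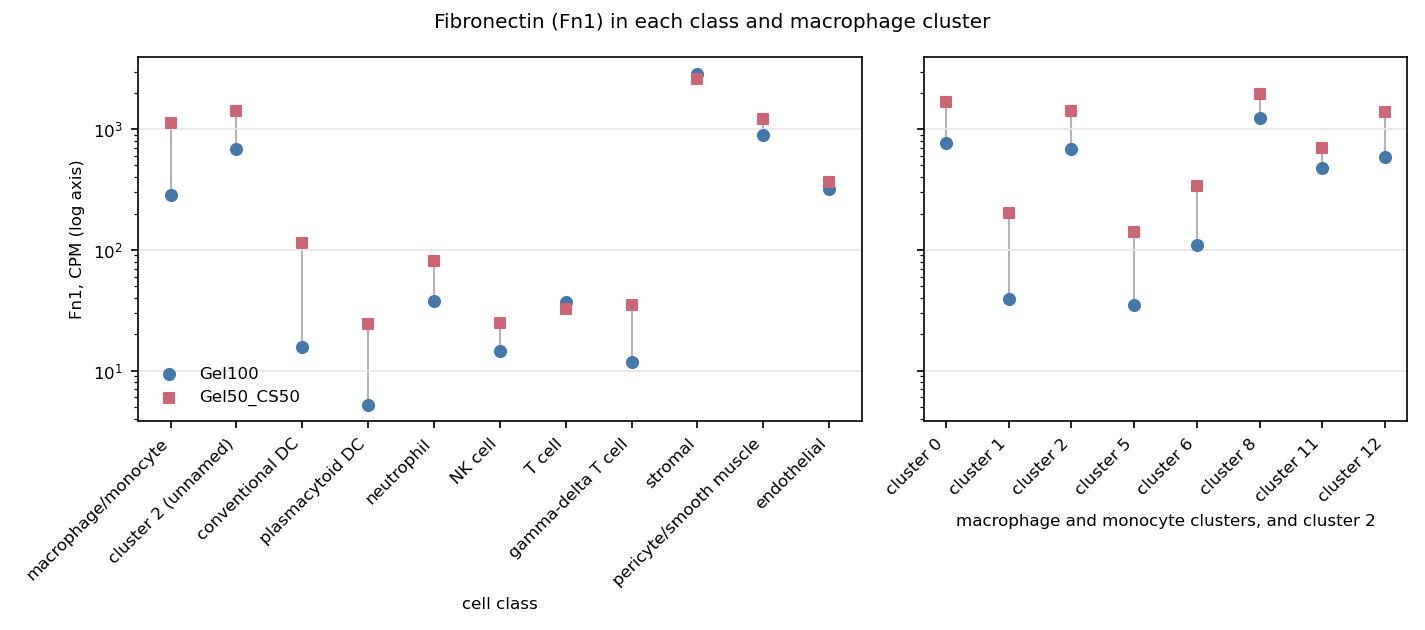
Level of Fn1 in CPM on a log axis in 11 classes (left) and in the macrophage and monocyte clusters with cluster 2 (right), Gel100 as circles and Gel50_CS50 as squares, joined by a line. The squares lie above the circles in every cluster at right, from 139 to 1967 CPM against 34.9 to 1236 CPM, and the 2 symbols nearly meet in stromal, T and endothelial cells.

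Col1a1, Col1a2 and Col3a1, the main collagen genes of stromal cells, were read beside Fn1 in the other classes. The 3 collagens summed to 69.7 CPM in Gel100 and 153 CPM in Gel50_CS50 macrophages. In stromal cells there were 0.0754 and 0.0636 Fn1 UMIs per collagen UMI. Macrophage Fn1 would be 5.26 and 9.75 CPM at those stromal ratios, against the 287 and 1114 CPM found. The part of stromal RNA in macrophage Fn1 was not tested. Stromal cells themselves held the most Fn1 of any class, at 2886 and 2582 CPM, with a log2 ratio of -0.16 (-0.18 to -0.14). In stromal cluster 13, 46.2% and 53.2% of the class, Fn1 was instead higher in Gel50_CS50. It stood there at 2183 and 2508 CPM, a log2 ratio of 0.20 (0.17 to 0.23). Over 20 profiles of the named classes, genes with profiles closest to Fn1 included Nt5dc2 (r = 0.94), Mmp14 (r = 0.94), Plod3 (r = 0.93) and Timp1 (r = 0.92). These r values span classes and libraries together. In macrophages of Gel100 and Gel50_CS50, Mmp14 stood at 427 and 361 CPM and Plod3 at 73.3 and 81.6 CPM. Nt5dc2 stood there at 17.5 and 20.8 CPM and Timp1 at 7.66 and 17.1 CPM. Mmp14 encodes a membrane-bound matrix protease, Plod3 a collagen-modifying enzyme and Timp1 a protease inhibitor.

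The other 13 measured genes of macrophages lay between log2 ratios of -0.21 and 0.62. Itga5, the fibronectin receptor subunit, stood at 177 and 186 CPM, and its partner Itgb1 at 404 and 437 CPM. Itgav stood at 111 and 131 CPM and Itgb5, its partner in a vitronectin receptor, at 101 and 113 CPM. The summed levels hid differences between clusters. Itgb5 was lower in Gel50_CS50 in cluster 6, at 386 and 205 CPM, and higher in cluster 1, at 60.2 and 109 CPM, and in cluster 12, at 45.3 and 124 CPM. Itgb7 was lower in cluster 0, at 109 and 61.9 CPM, and higher in cluster 8, at 40.7 and 90.5 CPM. Itga9, a receptor subunit for tenascin and osteopontin, was concentrated in cluster 5, at 184 and 266 CPM, against 3.04 and 8.83 CPM in cluster 12. Lamc1 stood at 34.1 and 52.3 CPM, with a log2 ratio of 0.62 (0.54 to 0.70). Itga9 over the whole class stood at 90.8 and 101 CPM, Itgal at 70.1 and 64.8 CPM and Itgb7 at 55.8 and 50.4 CPM.

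In neutrophils 10 genes were measured, and Itga5 and Fn1 passed the rule, both higher in Gel50_CS50, beside 7.96% of the 5468 genes measured, 2.98% higher and 4.97% lower. Itga5 stood at 40.2 CPM in Gel100 and 101 CPM in Gel50_CS50, a log2 ratio of 1.33 (1.04 to 1.64). A UMI of it was found in 81 of 614 and 364 of 1406 cells, or 10.9% and 20.4% after thinning. The difference lay mainly in cluster 3, at 39.1 and 124 CPM, and was smaller in cluster 7, at 55.5 and 81.2 CPM. In cluster 3, Itgal was also higher, at 188 and 396 CPM, while cluster 7 held 326 and 241 CPM. Neutrophil Fn1, at 38.0 and 81.5 CPM, rested on few cells: 5 cells held 72.1% of its UMIs in Gel100 and 43.4% in Gel50_CS50. Without those 5 cells of each library, it stood at 10.6 and 46.1 CPM. The collagen sum in neutrophils was 95.4 and 327 CPM, and Fn1 at the stromal ratio would be 7.19 and 20.8 CPM; the part of free RNA in neutrophil Fn1 was not tested. Itga4, at 303 and 227 CPM, was lower in Gel50_CS50 with an interval of -0.54 to -0.29. Itgb1, its partner, stood at 161 and 199 CPM.

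In both dendritic cell classes Fn1 passed the rule, on low counts. In conventional dendritic cells 13 genes were measured and 2 passed, both higher, beside 4.02% of all genes measured, 1.62% higher and 2.4% lower. Their Fn1 stood at 15.8 and 113 CPM, but 5 cells held 83.3% of the UMIs in Gel50_CS50, and without 5 cells of each library it stood at 8.63 and 18.95 CPM. Itgam, at 12.0 and 27.5 CPM, had 61.2% of its UMIs in 5 cells of Gel50_CS50; with each cell weighted equally its log2 ratio turned to -0.57. Itgae was lower in Gel50_CS50, with a log2 ratio of -0.41 (-0.62 to -0.21) that crosses 1.5-fold. Of the other well-expressed subunits of this class, Itgb1 stood at 458 and 482 CPM, Itgb2 at 114 and 115 CPM, Itgav at 65.7 and 82.5 CPM, Itgb7 at 66.4 and 68.9 CPM and Itga1 at 49.2 and 53.7 CPM. The macrophage marker Lyz2 stood at 261 and 738 CPM in this class. In plasmacytoid dendritic cells 11 genes were measured and 2 passed, both higher, beside 1.19% of all genes measured, 0.685% higher and 0.51% lower. Fn1 stood there at 5.22 and 24.1 CPM, and at the stromal collagen ratio would be 2.80 and 11.6 CPM. It was 1.82% and 2.16% of the macrophage level, where C1qa was 1.38% and 1.17% and Lyz2 1.61% and 1.12%. Itgax, at 17.8 and 35.1 CPM, was spread over more cells, with 93 of 423 and 101 of 259 cells positive. Itgb3, at 98.9 and 155 CPM, had a log2 ratio of 0.65 (0.50 to 0.80), which crosses 1.5-fold. Their Itgb1 stood at 179 and 191 CPM, Itgb2 at 129.9 and 122 CPM, Itgal at 90.7 and 81.2 CPM and Itgb7 at 81.8 and 87.6 CPM.

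In T and NK cells 18 genes were measured, and Lamc1 and Itgb8 passed the rule as higher, beside 1.83% of all genes measured, 0.919% higher and 0.907% lower. Lamc1 stood at 79.6 and 141 CPM, a log2 ratio of 0.83 (0.69 to 0.97), and Itgb8 at 24.8 and 45.1 CPM, a log2 ratio of 0.86 (0.61 to 1.11). Both are genes of cluster 20, which was 7.03% of the class in Gel100 and 13.2% in Gel50_CS50. Inside cluster 20, Itgb8 had a log2 ratio of 0.03 and Lamc1 one of 0.39. With the same cluster shares in both libraries, the log2 ratio was 0.16 for Lamc1 and 0.03 for Itgb8. In T cell cluster 15, led by Themis and Lef1, Lamc1 was lower in Gel50_CS50, at 76.6 and 14.1 CPM, on 136 and 14 UMIs. NK cells alone held Itga2 at 218 and 320 CPM, a log2 ratio of 0.55 (0.43 to 0.67). The remaining well-expressed genes of the class, Itgb1 at 428 and 386 CPM, Itga4 at 332 and 372 CPM and Itgal at 233 and 205 CPM, did not pass the rule. Over the class, Itgav stood at 328 and 354 CPM, Itga2 at 160.4 and 187 CPM and Itgb7 at 144 and 171 CPM. The collagen receptor subunit Itga1 stood at 121 and 96.7 CPM, Itgb3 at 163 and 144 CPM and Itgb2 at 154 and 135 CPM.

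In stromal cells 19 genes were measured and 3 passed the rule, 1 higher and 2 lower, beside 2.83% of the 9203 genes measured, 1.02% higher and 1.8% lower. Itgb3 was lower in Gel50_CS50, at 69.1 and 38.1 CPM, a log2 ratio of -0.86 (-0.98 to -0.73). It was carried by cluster 14, led by Col3a1, Ebf1 and Dcn, at 114 and 61.6 CPM. Itgb7 was lower as well, at 15.9 and 6.69 CPM, and 5 cells held 37.5% of its UMIs in Gel100. Itga11, which pairs with beta 1 as a receptor for fibrillar collagen, was higher, at 29.8 and 50.4 CPM, a log2 ratio of 0.76 (0.59 to 0.93), and this lay in cluster 13, at 41.3 and 73.2 CPM. After thinning to 3000 UMIs, where the median stromal cell had 46781.5 and 53741.5, the log2 ratio of Itga11 turned to -0.17 (-0.68 to 0.36). Its partner Itgb1 stood at 661 and 626 CPM. The vitronectin receptor subunits Itgav, at 124 and 134 CPM, and Itgb5, at 154 and 167 CPM, did not pass. Over the whole class, the measured laminin chains of stromal cells were lower in Gel50_CS50 without passing the rule: Lama4 stood at 431 and 400.1 CPM, Lama2 at 284 and 256 CPM, Lamb1 at 182 and 166 CPM, Lamb2 at 60.7 and 55.2 CPM and Lamc1 at 277 and 203 CPM. In cluster 13 alone, Lama4 was higher, at 207 and 268 CPM, and Lama2 lower, at 332 and 241 CPM. Lamc1, at 170 and 169 CPM, Lamb1, at 122 and 123 CPM, and Lamb2, at 50.8 and 49.5 CPM, were nearly level there. Lama1 and Lama3, both under the limit for measured genes in the whole class, went opposite ways: Lama1 stood at 8.51 and 1.01 CPM and Lama3 at 3.08 and 7.89 CPM. In cluster 13 both were measured and passed, Lama1 as lower, at 19.03 and 1.97 CPM, and Lama3 as higher, at 6.48 and 15.1 CPM. The share of all genes that passed in cluster 13 is not given here, so these 2 calls have no background beside them. Over the whole class, Lama3 had 34 UMIs in 6.36% of Gel100 cells and 297 UMIs in 11.7% of Gel50_CS50 cells. Lama1 rested on few cells: over the whole class, 2.97% of 236 Gel100 and 2.29% of 656 Gel50_CS50 cells held its 94 and 38 UMIs. Itga5 stood at 149 and 101 CPM, a log2 ratio of -0.55 (-0.64 to -0.47). The median log2 ratio of the 19 genes was -0.11, beside -0.03 for all genes.

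**Figure D4:**
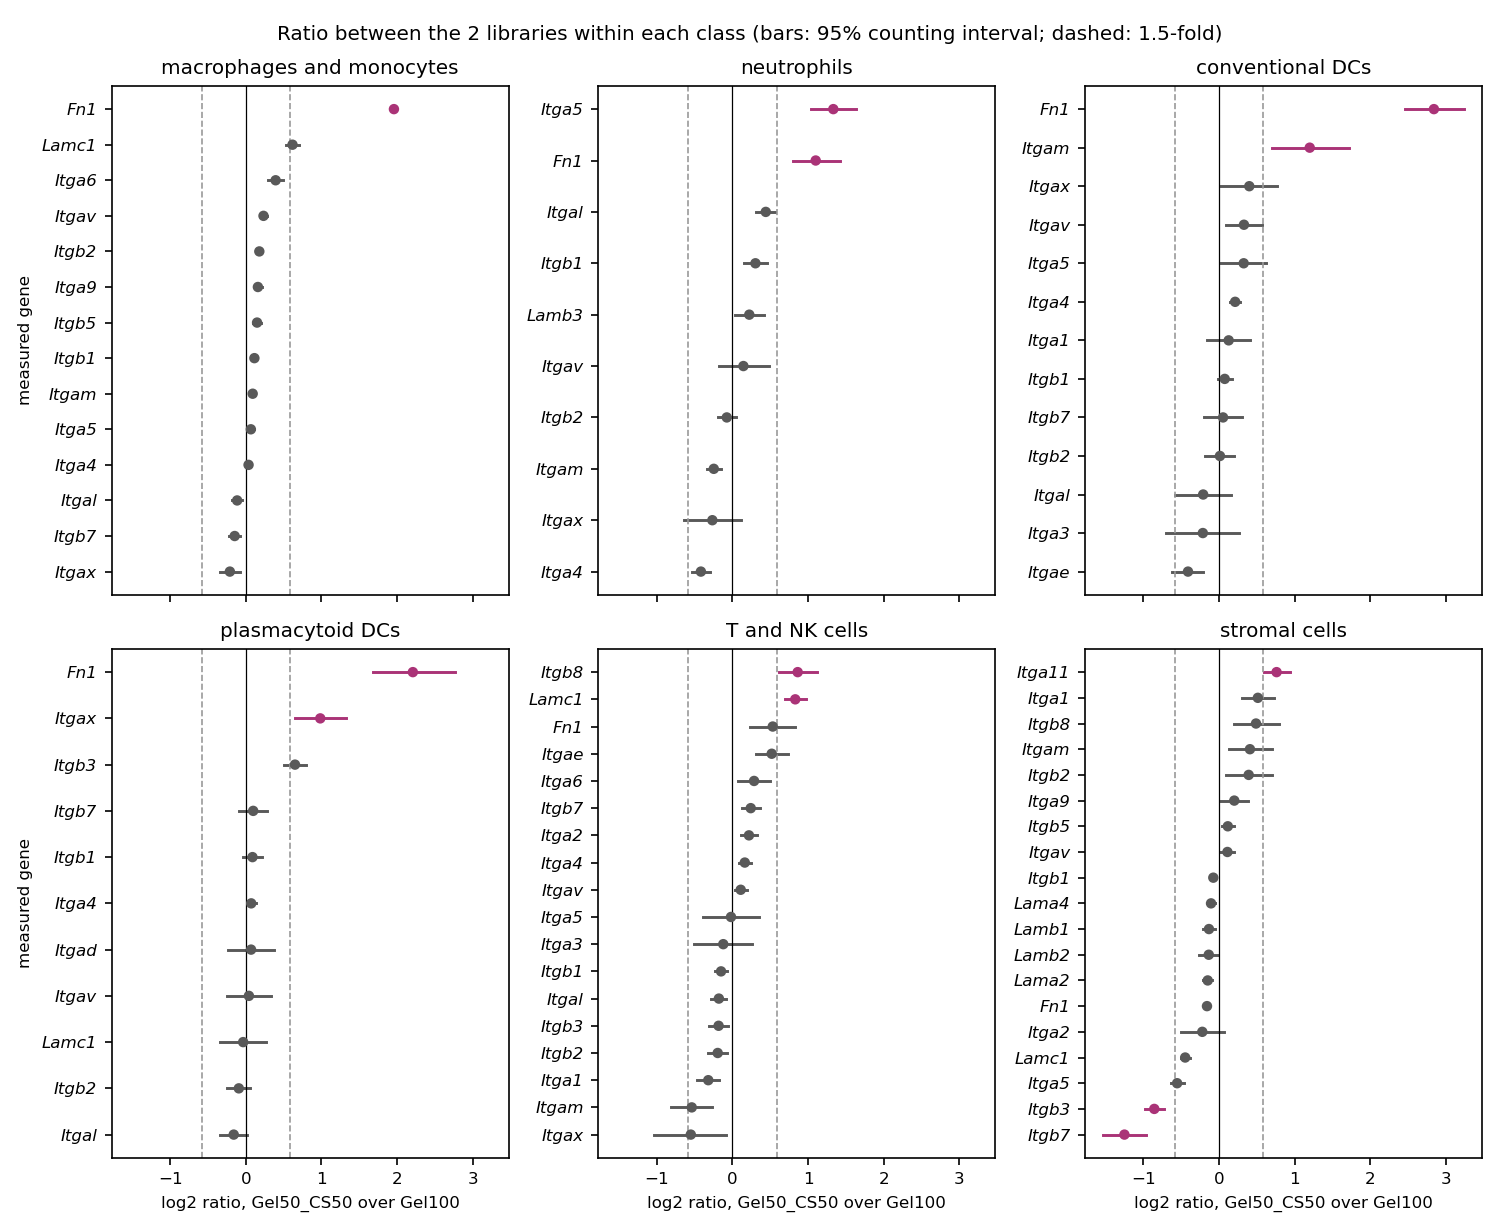
Log2 ratio of Gel50_CS50 over Gel100 (horizontal axes) for each measured gene in 6 classes, with 95% counting intervals as bars and 1.5-fold as dashed lines; purple marks intervals wholly beyond 1.5-fold. Fn1 stands at 1.96 in macrophages and at -0.16 in stromal cells, and most of the other genes lie between the dashed lines.

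Genes that work with these receptors were read from 7 lists: focal adhesion genes, other matrix ligands, cell surface ligands, basement membrane partners, other laminin receptors, integrin-associated proteins and fibronectin handling. Of 18 measured focal adhesion genes in macrophages, Tns1, a tensin that ties integrins to actin, was the single gene past the rule, at 26.2 and 43.7 CPM, a share near the 5.84% over all genes of the class. Of 10 measured matrix ligands there, 4 were higher: Spp1, which encodes osteopontin, at 745 and 1411 CPM, and the 3 collagens. Of all genes measured in macrophages, 2.12% were higher. The tetraspanin Cd9 was higher too, at 81.3 and 148 CPM. In neutrophils Vcl, which encodes the focal adhesion protein vinculin, stood at 133 and 248 CPM and passed, 1 of 14 measured focal adhesion genes, near the 7.96% over all genes of the class. Fap, a surface protease listed with fibronectin handling, was lower there at 349 and 209.7 CPM. In stromal cells, matrix ligands included Thbs1 (89.1 and 145 CPM) and Edil3 (223 and 366 CPM) among the higher and Ccn3 (491 and 191 CPM) as the lower of 20 measured. Over all genes measured in stromal cells, 1.02% were higher and 1.8% lower. Of 10 measured basement membrane partners, Nid2, which bridges laminin and collagen IV, was higher at 21.9 and 47.3 CPM, and Ntn4, a laminin-related netrin, was lower at 145 and 66.5 CPM. Itgbl1, an integrin beta-like secreted protein, stood at 345 and 670.4 CPM, Fbn2 at 58.9 and 113 CPM and Tln2 at 122 and 198 CPM, all higher. Thy1, a ligand of alpha v beta 3 and Mac-1, was lower at 327 and 181 CPM. In T and NK cells the matrix ligand Npnt, which encodes nephronectin, was higher at 16.4 and 38.7 CPM, and Spp1 was lower at 350.2 and 57.5 CPM. The syndecan Sdc3 was lower at 30.4 and 15.3 CPM and the tetraspanin Cd81 higher at 12.1 and 24.997 CPM. Conventional dendritic cells held more of the syndecan Sdc4, at 87.5 and 159.6 CPM, and of Edil3, a secreted RGD protein, at 56.3 and 138 CPM. The collagens, whose source in leukocyte classes was not tested, passed as higher in the other leukocyte classes too: all 3 in neutrophils, plasmacytoid dendritic cells and T and NK cells, and Col1a2 and Col3a1 in conventional dendritic cells.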

How the data were processed

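Single-cell RNA was measured in 2 libraries. The authors deposited raw UMI counts per gene and barcode, made with Cell Ranger 6.0.2 per the file headers, on mm10 per the submitters' processing notes; no label or header names the annotation release. The libraries held 7845 (Gel100) and 7515 (Gel50_CS50) barcodes with 108847835 and 150311308 UMIs. Cells with under 200 genes, under 500 UMIs or over 20% mitochondrial counts were removed (65 and 117), as were 179 and 192 doublets found by Scrublet. The rest were clustered with scanpy 1.11.5 and leidenalg 0.10.2 (3000 variable genes without the 38 members, 30 components, 15 neighbours, resolution 1). A cluster was named from marker lists by limits set after seeing the data: a score of 1.5, a lead of 0.5, 3 markers detected in 10% of cells and a median of 1000 UMIs. UMIs were summed per class and library and given per 1000000 UMIs (CPM). Ratios have exact conditional binomial intervals at 95%, tested on simulated data; 1 library per group allowed no test of the conditions. Depth limits low genes: 3 counts were taken as the floor. By the rule for named genes, a class's members are given from a mean of 50 CPM, when past 1.5-fold, or as a known partner; single clusters and a few lower members were picked after their values were seen. From the partner lists the genes past 1.5-fold were named, and for Fn1 the 5 nearest profiles; some results are not reported here. The members and lists were chosen with earlier results of these data known. The alternatives tried are other filters, clusterings, scalings, weightings and call limits.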

Additional observations from a re-analysis of the deposited data

How the results depend on the processing

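No paired analysis was possible because each scaffold has 1 library. Alternatives for the dendritic cell classes, and those that add or leave out a cluster or give T and NK cells or neutrophils the same cluster weights, were chosen after seeing the data. The number of genes wholly beyond 1.5-fold was 1 in macrophages and became 5 with no limit on low values, 2 by the ratio alone and 2 without cluster 8; Fn1 was among them in every alternative run. In stromal cells it was 3 and became 0 thinned to 3000 UMIs, 5 with each cell weighted equally, 6 with no limit, 1 from 50 CPM and 0 beyond 2-fold. In neutrophils it was 2 and became 1 when thinned, with members among the variable genes, under 10% mitochondrial counts, by the per-cell gate and beyond 2-fold. In T and NK cells it was 2 and became 0 when thinned, with equal cell weights, beyond 2-fold and with the same cluster weights, 1 at resolution 2.0, from 50 CPM and without cluster 17, and 4 with no limit. In conventional dendritic cells it was 2 and became 4 at resolution 2.0 and 1 when thinned, with members among the variable genes, doublets kept, by the gate, with equal cell weights, from 50 CPM and beyond 2-fold. In plasmacytoid dendritic cells it was 2 and became 0 when thinned or from 50 CPM and 1 beyond 2-fold. The share of all genes that passed under each alternative is not given beside these counts. A changed count therefore cannot be set against the change over all genes. The log2 ratio of Itga11 in stromal cells turned to -0.17 when thinned, and that of Itgam in conventional dendritic cells to -0.57 with equal cell weights; fewer counts remain after thinning, and the cause was otherwise not tested. Neutrophil Fn1 was 0.31 under 10% mitochondrial counts and 2.37 with doublets kept. Of 693 values of 60 ratios, 563 stayed within the counting interval.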
